A study of Mus musculus with 48 samples.

Results

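Transcripts of 10 glutathione S-transferase (GST) genes were followed in the jejunal epithelium of mice given TCDD, a persistent dioxin that activates the aryl hydrocarbon receptor (AHR). The genes were taken by name, with earlier results of these data known. Gsta1, Gsta3 and Gsta4 are of the Alpha class and Gstm1, Gstm3, Gstm4 and Gstm5 of the Mu class. The others are Gstt1 (Theta), Gstp1 (Pi) and Gsto1 (Omega). All 10 were among the 13065 genes measured in every sample, through 13 probes. Female C57BL/6 mice were gavaged with TCDD at 1 of 8 doses between 0.01 and 30 µg/kg, or with sesame oil as vehicle, every 4 days for 28 days per most labels, although one label also calls the gavage daily. The labels give no age. RNA of 1 TCDD animal and 1 vehicle animal was hybridised together on a two-colour Agilent array, and each such pair was repeated with the dyes exchanged, giving 48 arrays and 24 pairs. Each dose had 3 TCDD animals, all different, but the same 3 vehicle animals served every dose. Replicates 1, 2 and 3 are the pairs that share 1 of these vehicle animals each. Values are log2 ratios of TCDD over vehicle per pair, the mean of its 2 arrays, and in a bulk tissue sample fewer cells of a type and less RNA per cell cannot be told apart.

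GSTs join the tripeptide glutathione to electrophilic compounds, which makes these more water-soluble and ready for export, and several classes also handle products of lipid oxidation. In the small intestine they form, with cytochromes P450 and glucuronosyltransferases, a barrier against ingested foreign compounds. Genes of the Alpha, Mu and Pi classes are textbook targets of NRF2, a factor that binds antioxidant response elements, and some GST genes of rodents are counted in the AHR gene battery, whose members carry dioxin response elements.

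The sequences before the start of 4 of the genes are shown because Gstm3 changed with dose, Gsta3 and Gstt1 had the next smallest p-values at 30 µg/kg, and Gstm5 holds both elements searched. They are RefSeq sequences of build GRCm38.p6, 250 bases each, printed 5′ to 3′ on the gene's strand and ending at the base before the annotated start. Capitals mark GCGTG, the core of a dioxin response element, and TGACNNNGC, the core of an antioxidant response element, each searched on both strands.
Gstm3, chr3:107969175-107969424, minus strand: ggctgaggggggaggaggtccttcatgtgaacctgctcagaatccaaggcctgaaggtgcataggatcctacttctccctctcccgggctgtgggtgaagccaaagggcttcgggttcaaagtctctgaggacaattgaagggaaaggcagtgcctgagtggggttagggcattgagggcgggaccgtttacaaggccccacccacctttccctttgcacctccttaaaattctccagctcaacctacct
Gstm5, chr3:107895604-107895853, plus strand: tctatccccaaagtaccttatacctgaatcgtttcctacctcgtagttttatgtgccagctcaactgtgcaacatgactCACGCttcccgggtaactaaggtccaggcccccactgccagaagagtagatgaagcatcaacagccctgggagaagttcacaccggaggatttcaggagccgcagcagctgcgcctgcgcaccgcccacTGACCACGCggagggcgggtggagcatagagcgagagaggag
Gsta3, chr1:21240335-21240584, plus strand: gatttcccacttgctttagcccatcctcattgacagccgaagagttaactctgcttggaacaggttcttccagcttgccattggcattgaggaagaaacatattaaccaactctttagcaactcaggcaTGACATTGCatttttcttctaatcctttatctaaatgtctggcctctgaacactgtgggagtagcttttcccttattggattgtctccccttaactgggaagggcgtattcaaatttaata
Gstt1, chr10:75797732-75797981, minus strand: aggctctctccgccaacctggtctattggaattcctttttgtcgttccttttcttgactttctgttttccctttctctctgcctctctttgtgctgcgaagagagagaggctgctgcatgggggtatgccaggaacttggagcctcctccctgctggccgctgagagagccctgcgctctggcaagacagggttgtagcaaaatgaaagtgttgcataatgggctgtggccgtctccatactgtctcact

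The window searched also held the 50 bases after the start. It was given for 9 of the 10 genes, all but Gsta4. GCGTG was found in 4 of these 9 (Gsta1, Gstm1, Gstm5 and Gstp1), against 32.4% of the 32851 windows of all genes. TGACNNNGC was found in 2 (Gsta3, where it begins 121 bases before the start, and Gstm5, where it begins 42 bases before it), against 12.4% of all windows. In Gstm5 the antioxidant core overlaps one of the 2 dioxin cores. Neither run of letters was found in the windows of Gstm3 and Gstt1.

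The sign and base of the deposited log ratios are not stated. They were read as TCDD over vehicle because of Cyp1a1, the cytochrome most strongly induced through AHR. It was above 0 on 6 of 6 arrays in each dye orientation at 10 and 30 µg/kg. The base was taken as 2, which these values do not settle, and the levels given as a part of the vehicle level rest on it. On each array 203 to 335 probes carried exactly the same ratio, so that ratio is no measurement of each gene. Among the GST probes, Gsta1 and Gsto1 lay within 0.01 of it on both arrays in 14 of 24 pairs each, 1 of the 2 Gstm1 probes in 21 and 1 of the 2 Gstp1 probes in 23. Markers of exocrine pancreas, 12 genes, were raised in 6 pairs, with medians of 2.38 (0.03 µg/kg, replicate 2), 1.46 (0.1 µg/kg, replicate 2), 0.76 (0.3 µg/kg, replicate 3), 2.02 (1 µg/kg, replicate 1), 2.83 (30 µg/kg, replicate 1) and 0.60 (30 µg/kg, replicate 3). In the other 18 pairs the median lay between -0.09 and 0.13. Enterocyte markers, 9 genes, had medians between -0.15 and 0.12 in the 24 pairs.

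**Figure D1:**
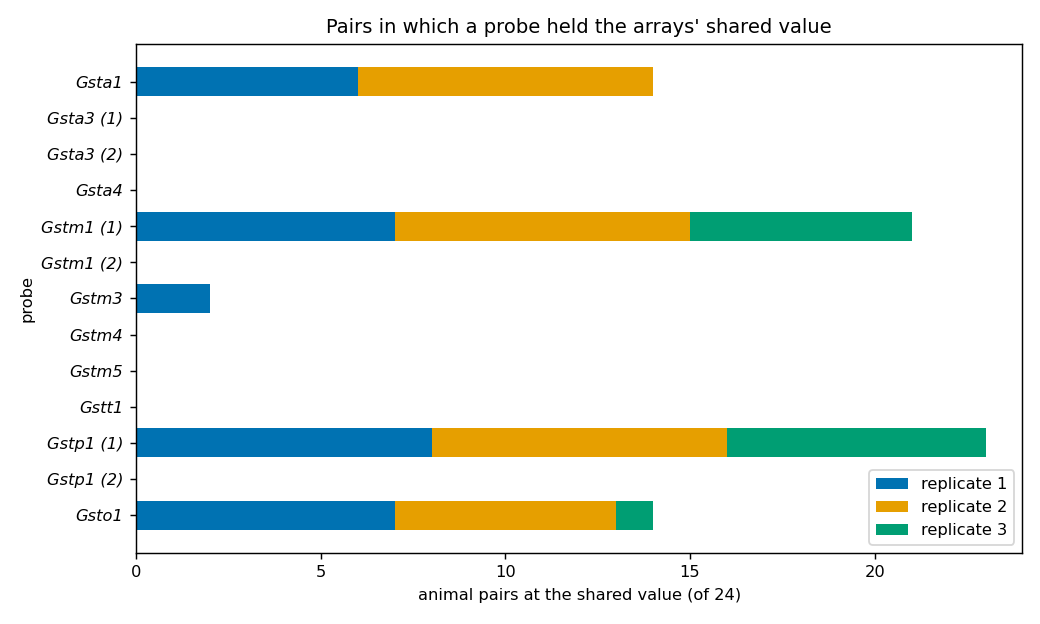
Number of the 24 pairs in which each of the 13 GST probes lay at the ratio shared by many probes of the array, coloured by replicate number. Probes are numbered where a gene has 2. The Gsta1 bar holds 6 pairs of replicate 1, 8 of replicate 2 and none of replicate 3, while 8 probes have no such pair.

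Gstm3, a Mu-class transferase, was the only gene of the 10 called by dose in limma's test across all genes, fitted without replicate number. With replicate number as a fixed block, Gsta3 was also called for high against low doses (adjusted p 0.029). Gstm3 was lower at the high doses. In replicate 1 its log2 ratios were 0.03, -0.17, 0.02, -0.10, 0.01, -0.48, -0.95 and -1.30, given for the doses of 0.01, 0.03 and 0.1 µg/kg, then 0.3 and 1 µg/kg, then 3, 10 and 30 µg/kg. In replicate 2 they were 0.14, 0.42, 0.06, 0.14, -0.41, -0.44, -0.45 and 0.13. In replicate 3 they were 0.51, 0.22, 0.28, -0.04, -0.26, -0.53, -0.61 and -0.95. All 3 pairs were below 0 at both 3 and 10 µg/kg. At 30 µg/kg replicate 2 was above 0, and the other pairs were the lowest of their replicates. The dose means were 0.23, 0.15, 0.12, 0.00, -0.22, -0.48, -0.67 and -0.71 from 0.01 to 30 µg/kg. The values of 0.03 and 0.02 in replicate 1 lay at the shared ratio of their arrays.

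At 30 µg/kg Gstm3 averaged -0.71 ± 0.74 (SD, n = 3), or 0.613 of the vehicle level, with a limma adjusted p of 0.0266. It was 1 of 10 GST genes called there, where 4.29% of all genes were called and 3.42% were called lower. The split of those calls depended on the scaling, with 114 higher and 447 lower as deposited, 154 and 130 with centred arrays, and 79 and 59 with quantile normalization. Gstm3 was below 0 in all 3 scalings. At 10 µg/kg it averaged -0.67 ± 0.26 (SD, n = 3) and was not called, with a limma adjusted p of 0.222. Its slope was -0.30 per 10-fold step in dose (SE 0.05), with a limma adjusted p of 0.00188. In that test 0.375% of all genes were called and 0.0918% were called lower (37 higher and 12 lower as deposited, 50 and 27 with centred arrays, 45 and 30 with quantile normalization). The mean at 10 and 30 µg/kg was 0.85 lower on the log2 scale than that at 0.01, 0.03 and 0.1 µg/kg (SE 0.16, limma adjusted p 0.0119), a test that called 0.559% of all genes and 0.122% lower. Across the 3 highest doses 8 of 9 pairs were below 0, and across the 3 lowest 8 of 9 were above 0. Of those above 0, the 2 of replicate 1 at 0.01 and 0.1 µg/kg lay at the shared ratio of their arrays.

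The call at 30 µg/kg was lost without replicate 1 (-0.41, adjusted p 0.316) and without replicate 3 (-0.58, adjusted p 0.280). It was also lost with centred arrays (adjusted p 0.0542), with quantile normalization (0.0819) and when the dose was fitted alone (0.505). The slope call was lost without replicate 3 (-0.25, adjusted p 0.162). It was kept without the 30 µg/kg pairs (-0.31, adjusted p 0.00193). The pancreas markers had medians of 2.83, -0.04 and 0.60 at 30 µg/kg in replicates 1, 2 and 3, where Gstm3 was at -1.30, 0.13 and -0.95. In the other 4 pairs with raised pancreas markers, at 0.03, 0.1, 0.3 and 1 µg/kg, Gstm3 was at 0.42, 0.06, -0.04 and 0.01. At 3 and 10 µg/kg, where those markers had medians of -0.02 to 0.08, Gstm3 lay between -0.95 and -0.44. Without the 30 µg/kg pairs of replicates 1 and 3 the slope was -0.24 (adjusted p 0.0502). Of other marker lists, 3 of 8 plasma cell markers and 3 of 12 T cell markers were called lower at 30 µg/kg and 2 of 6 hepatocyte markers higher. At that dose 1 of the 8, 6 of the 12 and 3 of the 6 were above 0. The plasma cell medians were -0.32, -0.25 and -0.23 in replicates 1, 2 and 3, and the T cell medians were 0.13, -0.09 and -0.03. The part of these cells in the Gstm3 values was not tested.

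**Figure D2:**
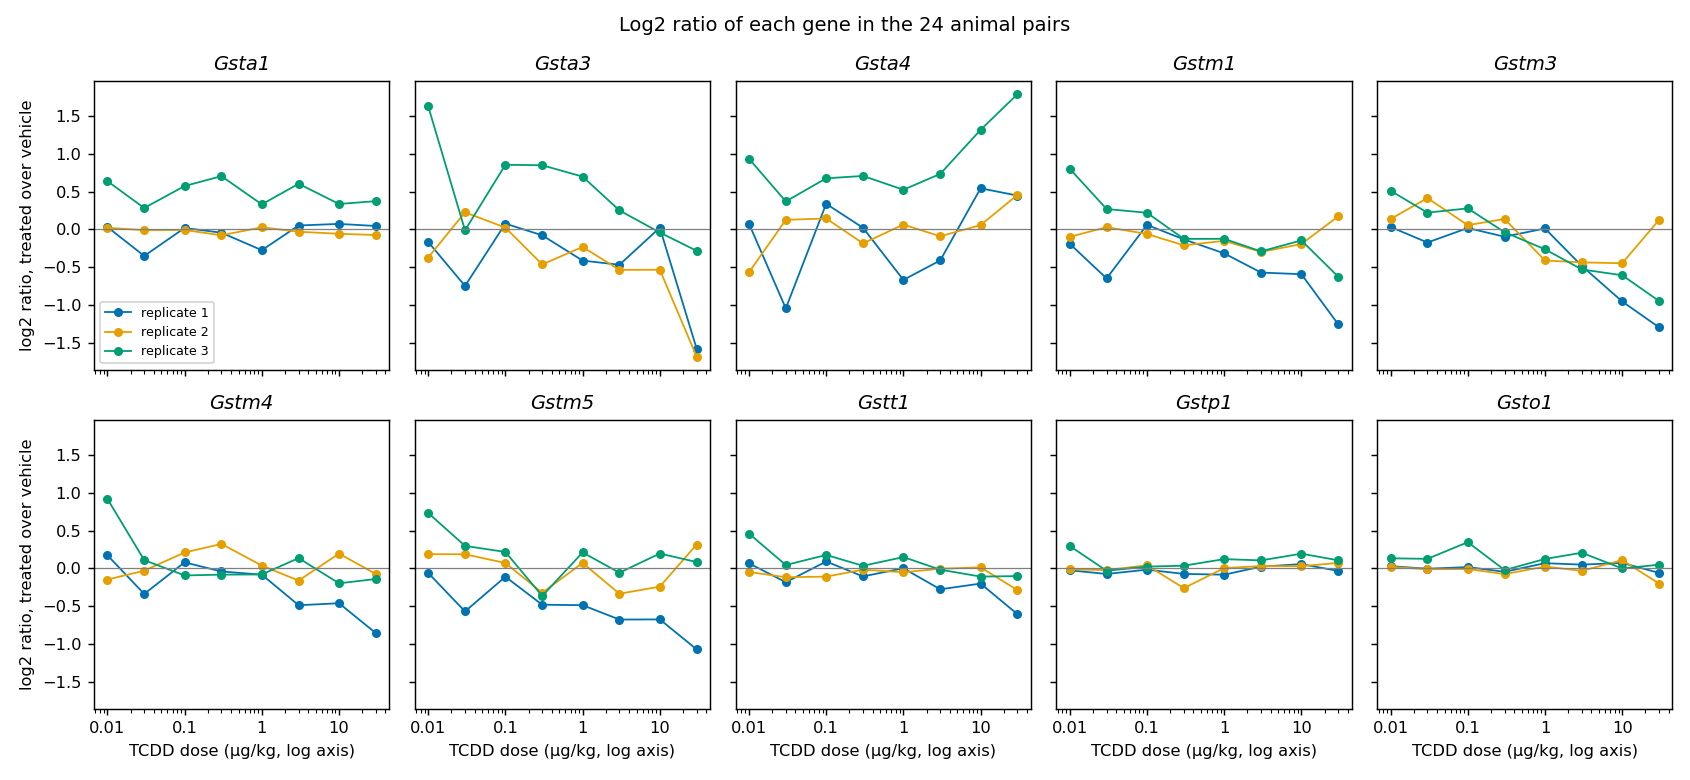
Log2 ratio of TCDD over vehicle for each GST gene at the 8 doses on a log axis, 1 point per pair, with lines joining the 8 pairs that share a vehicle animal. Gstm3 declines to between -0.95 and -0.45 at 10 µg/kg in all 3 lines, Gsta3 is lowest at 30 µg/kg in all 3, and Gsta1 is above 0 at every dose in replicate 3.

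The other Mu-class genes had negative slopes that did not pass the test. Gstm1, the Mu enzyme classically studied in rodent liver, had log2 ratios of -1.25, 0.17 and -0.63 in replicates 1, 2 and 3 at 30 µg/kg. Replicates 1 and 3 gave its lowest value of the 8 doses and replicate 2 its highest. Its mean there was -0.57 ± 0.72 (SD, n = 3, limma adjusted p 0.120), and its slope was -0.18 (SE 0.06, limma adjusted p 0.210). These averages take in the probe that lay at the shared ratio in 21 pairs. The probe that was free of it gave -1.95, 0.42 and -0.89 at 30 µg/kg. For 10 µg/kg it gave -1.25, -0.33 and -0.29. Its 2 dye orientations differed by 0.75 on average. Its slope was -0.31 (SE 0.10), with a limma adjusted p over probes of 0.269. The other probe left the shared ratio at 30 µg/kg in replicates 1 and 3, at -0.56 and -0.36, and stayed on it in replicate 2. Its mean there was -0.33 (SE 0.06), with a limma adjusted p over probes of 0.00393, a test whose spread comes mostly from values at the shared ratio.

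Gstm4 was at -0.86, -0.07 and -0.14 in the 3 pairs at 30 µg/kg, all below 0. Its values at 10 µg/kg were -0.46, 0.20 and -0.20. Gstm5 was at -1.07, 0.32 and 0.09 at the same dose of 30 µg/kg. Its values at 10 µg/kg were -0.67, -0.24 and 0.20. Both had their lowest value in replicate 1, the pair with the highest pancreas marker median. The slopes were -0.14 for Gstm4 (SE 0.05, limma adjusted p 0.277) and -0.13 for Gstm5 (SE 0.06, limma adjusted p 0.479). The part of the pancreas signal in the 30 µg/kg values of these genes was not tested.

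Gsta3, an Alpha-class enzyme that in mice conjugates aflatoxin epoxide, had the lowest mean of the 10 genes at 30 µg/kg. Its log2 ratios were -0.16, -0.75, 0.08, -0.08, -0.41, -0.47, 0.02 and -1.58 from 0.01 to 30 µg/kg in replicate 1. In replicate 2 they were -0.37, 0.23, 0.02, -0.46, -0.23, -0.53, -0.53 and -1.68. In replicate 3 they were 1.63, -0.01, 0.86, 0.85, 0.70, 0.25, -0.04 and -0.28. The 30 µg/kg value was the lowest of the 8 doses with each of the 3 vehicle animals. The pancreas markers had medians of 2.83, -0.04 and 0.60 at that dose in replicates 1, 2 and 3. The part of the pancreas signal in the Gsta3 values was not tested. The mean at 30 µg/kg was -1.18 ± 0.78 (SD, n = 3), or 0.441 of the vehicle level, with a limma adjusted p of 0.0573, just outside the threshold. It passed with replicate number as a random block (adjusted p 0.0227) and without replicate 3 (-1.63, adjusted p 0.00269). Leaving out replicate 1 gave -0.98 (adjusted p 0.350) and leaving out replicate 2 gave -0.93 (adjusted p 0.295), neither past the threshold. The high doses differed from the low ones by -0.85 (limma adjusted p 0.324), which passed with replicate number as a fixed block (adjusted p 0.029) and not as a random one (adjusted p 0.0896). Its slope was -0.30 (SE 0.10, limma adjusted p 0.275). The 2 probes of the gene gave means of -1.34 and -1.03. The difference between 30 and 10 µg/kg was -0.997 (SE 0.49, limma adjusted p 0.762), and none of the 10 genes passed that test, in which 0.0306% of all genes were called.

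Gsta4, the Alpha-class enzyme with high activity towards the lipid aldehyde 4-hydroxynonenal, lay on the other side of 0. Its ratios at 30 µg/kg were 0.45, 0.46 and 1.79 in replicates 1, 2 and 3, while those at 10 µg/kg were 0.54, 0.06 and 1.32. All 6 pairs were above 0. With each vehicle animal the 30 µg/kg value was the highest or second highest of the 8 doses. The mean at 30 µg/kg was 0.90 ± 0.77 (SD, n = 3, limma adjusted p 0.130) and the slope was 0.20 (SE 0.10, limma adjusted p 0.484), so neither passed. Without replicate 3 the mean at 30 µg/kg was 0.45 (adjusted p 0.393). With replicate number as a fixed block, the difference of the high from the low doses was 0.65 with an adjusted p of 0.0565.

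Gsta1, the third Alpha-class gene, was above 0 with 1 vehicle animal and mostly at the shared ratio with the others. In replicate 3 its ratio was between 0.28 and 0.71 at every dose, while in replicates 1 and 2 it lay between -0.35 and 0.07. Of the 16 pairs of replicates 1 and 2, 14 lay within 0.01 of the shared ratio, though the probe carried exactly that ratio on 0 arrays. Whether these 14 are values of the gene's own cannot be told. Its slope was -0.01 (SE 0.05, limma adjusted p 0.982).

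Gstt1, a Theta-class enzyme that acts on small halogenated compounds, was at -0.60, -0.29 and -0.10 in the 3 pairs at 30 µg/kg. All were below 0, and replicates 1 and 2 gave their lowest value of the 8 doses. The mean was -0.33 ± 0.25 (SD, n = 3) with a limma adjusted p of 0.05004, just above the threshold. The adjusted p was 0.0329 with replicate number as a random block and 0.0455 without replicate 3. It was 0.448 without replicate 1, where the mean was -0.19, and 0.161 without replicate 2. Its slope was -0.09 (SE 0.03, limma adjusted p 0.212).

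Gstp1, the Pi-class enzyme, lay between -0.26 and 0.30 in the 24 pairs as the mean of its 2 probes, 1 of them at the shared ratio in 23. The probe that was free of it lay between -0.44 and 0.57. It was at -0.11, 0.22 and 0.19 at 30 µg/kg and had a slope of 0.03 (SE 0.04, limma adjusted p over probes 0.833). Gsto1, the Omega-class enzyme, which reduces dehydroascorbate and methylated arsenic, lay between -0.20 and 0.35, and 14 of its 24 values were at the shared ratio. Neither gene was called by dose in any test.

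**Figure D3:**
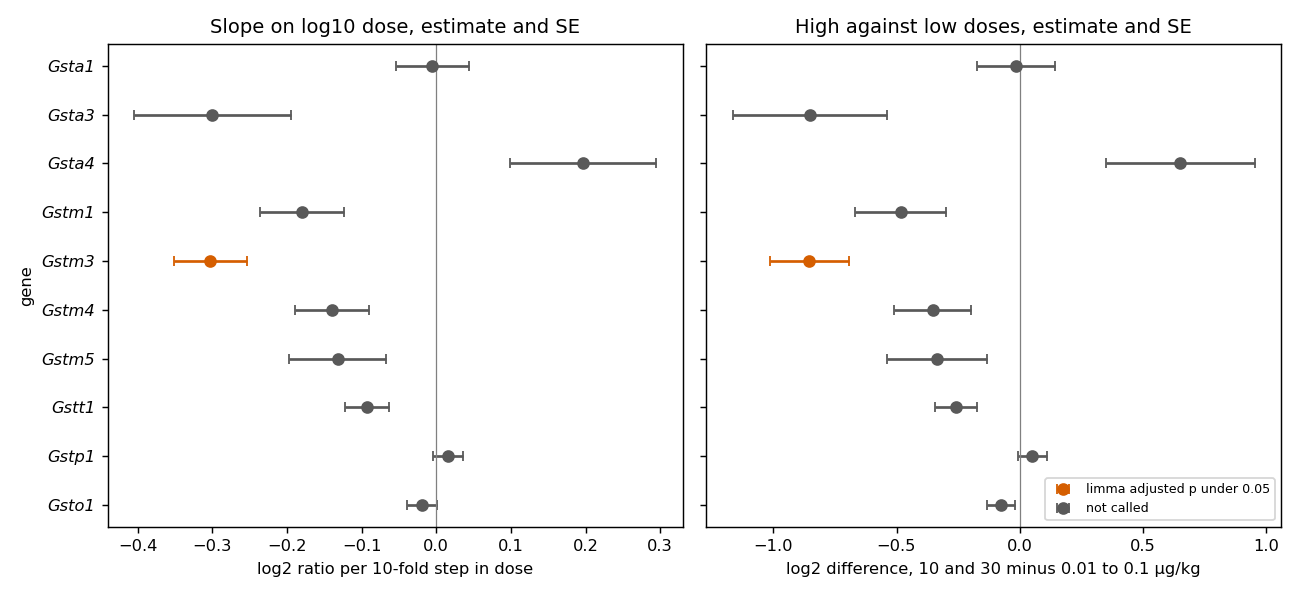
Estimate and SE from limma for the 10 genes, with the slope per 10-fold step in dose on the left and the difference of 10 and 30 µg/kg from 0.01, 0.03 and 0.1 µg/kg on the right. Gstm3, at -0.30 and -0.85, is coloured as the gene with an adjusted p under 0.05, and Gsta4, at 0.20 and 0.65, lies farthest above 0.

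At the other doses no GST gene was called. Of all genes, 0.0153% were called at 0.03 µg/kg and 0.0230% at 0.1 µg/kg. The share was 1.42% for 0.3 µg/kg and 0.237% for 10 µg/kg, while no gene was called for 0.01, 1 and 3 µg/kg. The median of the 10 genes was 0.20 at 0.01 µg/kg, where all 10 means were above 0, and -0.28 at 30 µg/kg, where 3 were above 0. The medians of all genes at those doses were 0.03 and -0.05. From 0.03 to 10 µg/kg the medians of the 10 genes were -0.06, 0.10, -0.01, -0.01, -0.13 and -0.13. The means above 0 numbered 2, 10, 5, 5, 4 and 4 at these doses. With centred arrays 7 means were above 0 at 0.03 µg/kg. At 0.01 µg/kg all 10 GST genes were above 0 in replicate 3, with a median of 0.69, while 6 were above 0 in replicate 1 and 4 in replicate 2, with medians of 0.03 and -0.03.

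Several GST genes differed by replicate number, which marks the vehicle animal of the pair. It was called for 6 of the 10 (Gsta1, Gsta3, Gsta4, Gstm5, Gstt1 and Gstp1), in a limma F test that called 21.8% of all genes. For Gsta1 that test set replicate 3 against pairs of which 14 of 16 held the shared ratio, so it compares no levels of Gsta1 between vehicle animals. The share of each gene's spread within doses that went with replicate number was 73.1% for Gsta4, 71.8% for Gstm5 and 67.5% for Gsta3, and the lowest was 23.7% for Gstm3. The median over all genes was 25.8%. Within a replicate the TCDD animal was a different one at each dose and the vehicle animal was the same. The level of that vehicle animal and anything else its pairs had in common cannot be told apart.

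For Gsta4 and Gsta3 of the Alpha class replicate 3 was the high one. Gsta4 averaged 0.88 ± 0.46 over the 8 doses of replicate 3, above 0 in 8 of 8, against -0.09 ± 0.57 in replicate 1 and 0.00 ± 0.30 in replicate 2 (SD, n = 8 each). Gsta3 averaged 0.49 ± 0.63 in replicate 3, against -0.42 ± 0.54 in replicate 1 and -0.45 ± 0.57 in replicate 2. Gsta1 averaged 0.48 ± 0.17 in replicate 3, the only replicate with no pair within 0.01 of the shared ratio. Each Mu gene had its lowest mean in replicate 1, but only Gstm5 was called for replicate number. The limma adjusted p was 0.0593 for Gstm1, 0.216 for Gstm3 and 0.123 for Gstm4. Genes of other classes were also lowest in replicate 1, such as Gstt1 (-0.15). Gstm5 averaged -0.52 ± 0.32 in replicate 1 and was below 0 at all 8 doses, against -0.01 ± 0.25 in replicate 2 and 0.17 ± 0.31 in replicate 3. The limma adjusted p-values for replicate number were 7.75e-05 for Gsta1, 8.98e-04 for Gsta4, 0.00125 for Gstm5 and 0.0022 for Gsta3. They were 0.0313 for Gstt1 and 0.0491 for Gstp1. Without replicate 3 the calls of Gsta1, Gsta3 and Gsta4 were lost (adjusted p 0.789, 0.920 and 0.789), and without replicate 1 that of Gstm5 (0.246). Gstt1 lost its call without replicate 1 (0.203) and without replicate 3 (0.467). Gstp1 lost its call without replicate 1 (0.205), 2 (0.0850) or 3 (0.862), with centred arrays (0.0562) and with quantile normalization (0.0618).

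**Figure D4:**
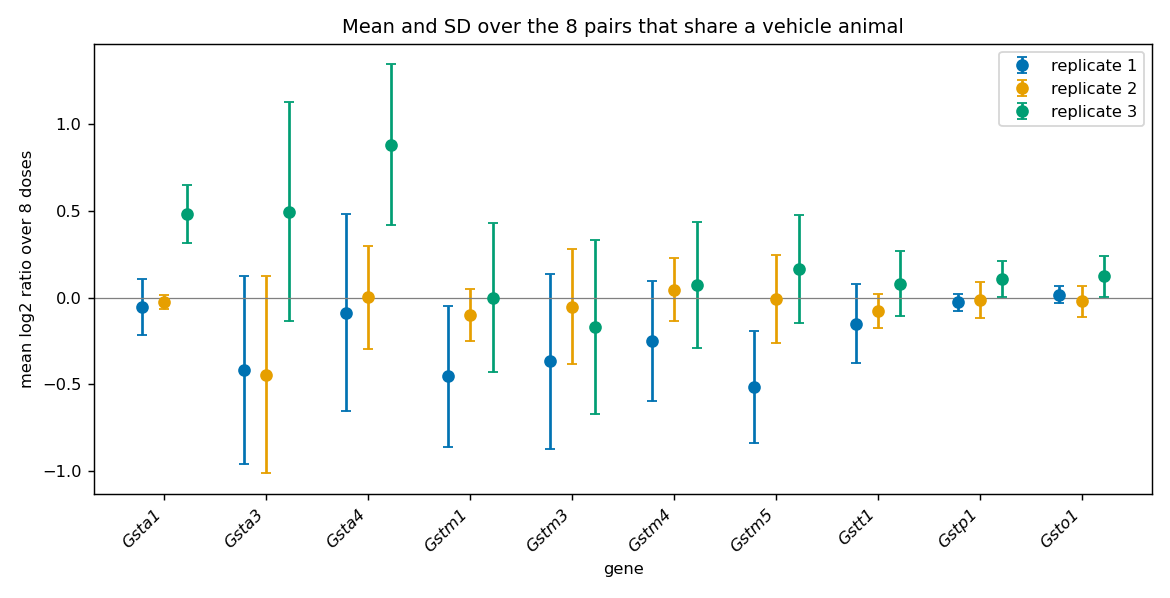
Mean and SD of the log2 ratio over the 8 pairs that share a vehicle animal, for each GST gene. Replicate 3 lies above the other replicates for Gsta3 (0.49) and Gsta4 (0.88), while most Gsta1 values of replicates 1 and 2 are the shared ratio, and replicate 1 lies lowest for Gstm5 (-0.52).

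Among themselves the Mu genes moved together across the 24 pairs, given here as a description, since pairs of a replicate share a vehicle animal and all genes share the arrays. Gstm1 had a Pearson's r of 0.83 with Gstm3, 0.81 with Gstm4 and 0.84 with Gstm5. With the mean of each replicate removed these were 0.85, 0.76 and 0.79. Lower values joined the other Mu genes, with 0.67 for Gstm3 and Gstm4, 0.59 for Gstm3 and Gstm5, and 0.70 for Gstm4 and Gstm5. Those were 0.64, 0.64 and 0.61 with replicate means removed. Gstt1 followed both Gstm4 (0.82) and Gsta3 (0.81), and again 0.82 and 0.77 with replicate means removed. Gsta3 and Gsta4 of the Alpha class had an r of 0.35, and -0.17 with replicate means removed. Gsta1, mostly at the shared ratio in replicates 1 and 2, had an r of 0.70 with Gsta3 and 0.75 with Gsta4, and 0.41 and 0.35 with replicate means removed. Gsta4 and Gstm3 ran opposite ways, with an r of -0.27, and -0.47 with replicate means removed. The Mu genes are near-identical in parts of their sequence, and the probe sequences were not used here, so how far a probe also binds another Mu transcript was not tested.

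**Figure D5:**
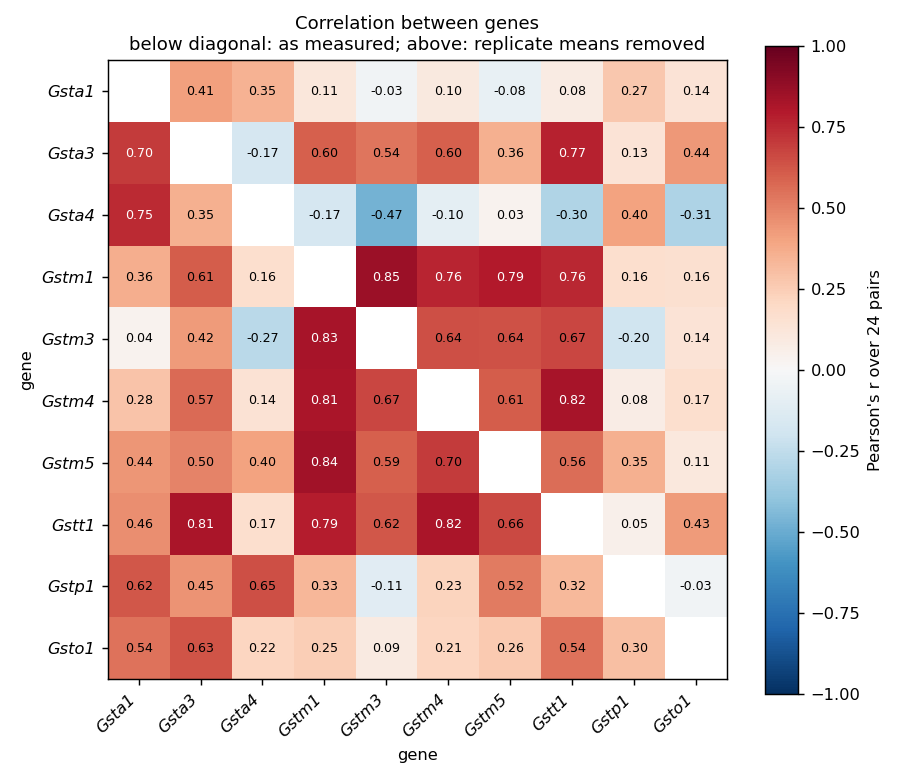
Pearson's r between GST genes over the 24 pairs, as measured below the diagonal and with the mean of each replicate removed above it. The Mu genes and Gstt1 form a block between 0.56 and 0.85, and Gsta4 with Gstm3 is the lowest cell both below (-0.27) and above (-0.47) the diagonal.

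Outside the GST and related transferase lists, the genes with the highest r over the 24 pairs were Mtfp1 (0.80), a mitochondrial fission factor, and Ctsc (0.79), the protease cathepsin C, for Gstm3. For Gsta3 they were Aldoc (0.93), a glycolytic aldolase, and Ugt2b5 (0.90), a glucuronosyltransferase. For Gsta4 they were Entpd5 (0.92), a nucleotidase, and Alpi (0.90), the alkaline phosphatase of the enterocyte brush border. For Gstm5 they were Akr1b8 (0.89), an aldo-keto reductase, and Nxpe4 (0.85). For Gstt1 they were Dhrs4 (0.87), a carbonyl reductase, and Cryl1 (0.87). For Gstp1 they were Cmas (0.88), which activates sialic acid, and Plbd2 (0.86). For Gsta1, most of whose values in replicates 1 and 2 lay near the shared ratio, they were Tet2 (0.90) and Akr1c12 (0.89). For the members not called in any test the r of the closest gene was 0.87 to 0.89.

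In the rest of the glutathione system no gene was called in any of the dose tests of the main fit. Some were called at 30 µg/kg under alternatives. With TCDD RNA in Cy5 only these were 4 other transferases, 1 gene of synthesis and recycling, and 3 peroxidases or exporters. In Cy3 only they were 2 genes of synthesis and recycling and 1 peroxidase or exporter. Without replicate 2 there was 1 peroxidase or exporter. All genes called under such alternatives are counted further below. The lists held 16 other transferases (of 22 listed) with values of their own, 13 genes of synthesis and recycling, and 12 glutathione peroxidases and conjugate exporters, once genes whose probes all carried the shared ratio on 6 or more arrays were left out. Mgst2 (18 pairs) and some probes of Lap3 (24 and 20) still lay within 0.01 of it in most pairs, while another Lap3 probe did so in 0. The smallest p at 30 µg/kg belonged to Mgst3, a microsomal transferase, at 0.19 ± 0.14 (adjusted p 0.147), Gstm6 at -0.22 ± 0.16 (0.157) and Gstk1, the mitochondrial and peroxisomal Kappa enzyme, at -0.31 ± 0.12 (0.162). The 16 transferases had a median of -0.05 at 30 µg/kg, as did all genes, while the 10 GST genes followed here had a median of -0.28. Both sets were chosen with earlier results of these data known, so the choice may enter this difference, which was not tested. Among the genes of synthesis and recycling Ggct, which cleaves gamma-glutamyl peptides, came closest at -0.38, -0.28 and -0.34 in the 3 pairs at 30 µg/kg (mean -0.33 ± 0.05, limma adjusted p 0.0555). Oplah, which opens the ring of 5-oxoproline, was at 0.33 ± 0.39 (0.196) and Ggt6 at -0.13 ± 0.08 (0.273). Among the peroxidases and exporters Gpx2, the glutathione peroxidase of the gut epithelium, was at -1.32, 0.34 and -0.93 in the 3 pairs, the same order as Gstm1 and Gstm3 (mean -0.64 ± 0.86, limma adjusted p 0.130). The exporter Abcc4 was at -0.18 ± 0.06 (0.0841) and the glutaredoxin Glrx at -0.26 ± 0.08 (0.204).

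The NRF2 and AHR lists gave calls at 30 µg/kg. Of 15 NRF2 targets outside glutathione metabolism with values of their own, 2 were lower, where 3.42% of all genes were called lower. Aldh1a1, a retinaldehyde dehydrogenase, was at -0.69, -0.74 and -0.31 (mean -0.58 ± 0.24, limma adjusted p 0.00207). Its probe lay at the shared ratio in 11 of the 24 pairs, none of them at 30 µg/kg, and those values enter the spread of its test. Me1, the cytosolic malic enzyme, was at -1.43, -0.48 and -0.88 (mean -0.93 ± 0.48, limma adjusted p 0.0357). Me1 lost its call with centred arrays (adjusted p 0.0682), with quantile normalization (0.117) and with its weakest probe (0.0802). With the dose fitted alone neither Me1 nor Aldh1a1 was called (adjusted p 0.292 for each). Without replicate 1 the adjusted p was 0.0520 for Aldh1a1 and 0.319 for Me1, and without replicate 2 it was 0.0891 and 0.0716. Without replicate 3 it was 0.0620 for Me1. Keap1, the inhibitor of NRF2, was at -0.31 ± 0.35 and was not called (0.142). Nqo1, a quinone reductase held by both lists, was at -0.61, 0.55 and 0.52 (limma adjusted p 0.779). Of 6 genes of the AHR battery with values of their own, 4 were higher at 30 µg/kg, where 0.873% of all genes were called higher. Cyp1a1 was at 2.58, 3.21 and 3.27 (mean 3.02 ± 0.38, limma adjusted p 3.80e-04), Tiparp, an AHR-induced repressor of the receptor, at 1.57, 1.56 and 1.11 (1.18e-04), Cyp2s1 at 0.82, 0.55 and 0.52 (0.00105), and Ahr itself at 0.55, 0.77 and 1.08 (0.00168). Cyp2s1 lost its call without replicate 3 (adjusted p 0.0532) and with only the arrays that held TCDD RNA in Cy5 (0.0615). With each dose fitted alone Cyp1a1 kept its call (adjusted p 0.0125). Tiparp (0.0787), Ahr (0.218) and Cyp2s1 (0.218) lost theirs in that fit. None of the 10 GST genes was called higher at any dose.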

How the data were processed

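The authors deposited log ratios for 41085 probes from 48 two-colour arrays, read here as log2 of TCDD over vehicle. The base, the direction and the software, background correction and normalization that the authors used are not given in the sources used here. The files hold no intensities, so dim and saturated spots could not be told apart, and the number of arrays limits the precision. Of the cells, 25.0% are empty, and an array holds 27341 to 33126 values.

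The 2 dye-swapped arrays of a pair were averaged. Across probes these 2 arrays had correlations of -0.20 to 0.48, and of 0.02 to 0.69 once the mean profile of each dye orientation was taken out. Probes annotated to a single gene and complete over the 48 arrays, 17836 in all, were averaged to 13065 genes. Of the table's probes 8485 are not in the annotation. Of the 32555 probes with 1 symbol, 32416 were updated by gene identifier to GRCm38.p6.

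All tests used limma 3.58.1 (lmFit and eBayes, R 4.3.3, statmod 1.5.0) on all genes at once, two-sided, with Benjamini-Hochberg adjustment and a threshold of 0.05. They were the mean at each dose against 0, the slope on log10 dose, 10 and 30 against 0.01, 0.03 and 0.1 µg/kg, 30 against 10 µg/kg, and an F test for replicate number with the dose means in the model. The spread was estimated jointly for all doses, so an adjusted p is not that of 3 pairs alone, and the ± values are SDs of the pairs. The tests were tested on simulated data with known changes. Those data were drawn independently for each pair, so they do not cover the shared vehicle animals of the real pairs. The 8 dose tests, the slope and the contrasts share the same 3 vehicle animals.

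Replicate numbers mark the vehicle animal, so they pair the samples. After removal of dose means, pairs of the same number correlated with a mean of 0.28 across genes (84 combinations) and pairs of different numbers with a mean of -0.14 (168). A pair lay at the shared ratio when both arrays were within 0.01 of their most frequent value. Correlations across pairs are Pearson's and carry no test.

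The 10 genes and all lists were chosen with earlier results of these data known. The text names all 10 genes, the 3 genes of each list with the smallest p at 30 µg/kg, and the 2 genes outside the transferase lists most correlated with each GST gene called in any test. Nqo1, Ahr and the probe-level values of Gstm1 and Gstp1 were chosen after their values were seen. Alternatives were replicate number as a block, each replicate left out, centring, quantile normalization, single dye orientations, probes with missing values, shared-value or discordant probes left out, a robust prior, each dose alone and the weakest probe of a gene. Added after the data were seen were the fixed block, the fits without 30 µg/kg pairs and the wider exclusion of shared values.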

Additional observations from a re-analysis of the deposited data

Results flagged for a closer look

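The effect of TCDD against vehicle differed between doses for Gstm3, by the tests of that difference. The limma adjusted p was 0.00188 for the slope on log10 dose and 0.0119 for 10 and 30 µg/kg against 0.01, 0.03 and 0.1 µg/kg, and 8 of 9 pairs at 3, 10 and 30 µg/kg were below 0.

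The deposited ratio differed between replicate numbers for 6 genes. The limma adjusted p for replicate number was 7.75e-05 for Gsta1, 0.0022 for Gsta3, 8.98e-04 for Gsta4, 0.00125 for Gstm5, 0.0491 for Gstp1 and 0.0313 for Gstt1. In replicate 3 Gsta1 and Gsta4 were above 0 at 8 of 8 doses, and in replicate 1 Gstm5 was below 0 at all 8. In replicates 1 and 2 most values of Gsta1 lay at the ratio shared by many probes, so its p compares no levels of Gsta1 between vehicle animals.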

How the results depend on the processing

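Under the alternatives run, Gstm3 stayed below 0 at 30 µg/kg, in its slope and in the difference of high from low doses, and the p-values that ended its calls stand in the report. The difference of high from low doses lost its call without replicate 1 (-0.74, adjusted p 0.138), without replicate 3 (-0.72, 0.264) and without the 30 µg/kg pairs of replicates 1 and 3 (-0.44, 0.243). It held without all 30 µg/kg pairs (-0.84, 0.00771). Of 1638 GST values recomputed under an alternative, 104 had the other sign, 4 of them where the reported value was 0.2 or more in size, and none where a call was involved.

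With replicate number as a random block (correlation 0.17), 3 GST genes were called at 30 µg/kg. The share of all genes called at 30 µg/kg in that fit is not given here, so the 3 stand against no background. All genes called were 1 at 0.03 µg/kg, 5 at 0.1 µg/kg, 88 for the slope and 165 for high against low doses. With the fixed block, 2 GST genes were called for high against low doses, where Gsta3 passed (-0.85, adjusted p 0.029), and all genes called were 103 for the slope, 218 for high against low doses and 12 for 30 against 10 µg/kg. The block changed no other call of a GST gene.

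Leaving out each replicate in turn gave 0 to 2 GST genes at 30 µg/kg, 0 to 1 for the slope and for high against low doses, and 1 to 6 for replicate number, with Gsta1, Gsta3 and Gsta4 not called without replicate 3. All genes called were 0 at 0.03 and 0.1 µg/kg, 4 to 40 at 0.3 µg/kg, 10 to 93 at 10 µg/kg, 192 to 255 at 30 µg/kg, 8 to 124 for the slope, 26 to 87 for high against low doses, 0 to 1 for 30 against 10 µg/kg and 541 to 1516 for replicate number.

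With centred arrays 0 GST genes were called at 30 µg/kg, and all genes called were 0 at 0.03 µg/kg, 18 at 0.3 µg/kg (4 higher and 14 lower, against 3 and 183 as deposited), 284 at 30 µg/kg and 77 for the slope. With quantile normalization 0 GST genes were called at 30 µg/kg, and all genes called were 0 at 0.03, 6 at 0.1, 8 at 0.3 and 138 at 30 µg/kg, 75 for the slope and 1 for 30 against 10 µg/kg. With only the arrays that held TCDD RNA in Cy5, 1 GST gene was called at 0.3 µg/kg (Gstm5), 1 at 10 µg/kg (Gstm3) and 3 at 30 µg/kg. All genes called were 119, 443, 429, 1666, 656, 439, 630 and 1842 from 0.01 to 30 µg/kg, 31 for the slope and 2 for 30 against 10 µg/kg. With it in Cy3, 2 GST genes were called at 30 µg/kg, and all genes called were 94, 498, 649, 1862, 88, 304, 362 and 1061 from 0.01 to 30 µg/kg, 32 for the slope, 45 for high against low doses and 1 for 30 against 10 µg/kg. One orientation keeps the dye effects that the mean of both cancels.

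With each dose fitted alone, 0 GST genes were called at 30 µg/kg, and all genes called were 0 at 0.03, 1 at 0.1, 0 at 0.3, 1 at 10 and 4 at 30 µg/kg. With the weakest probe of each gene they were 1, 1, 48, 20 and 250 at those doses, 30 for the slope and 1813 for replicate number. With probes holding missing values added they were 1 at 0.03 µg/kg and 7 for 30 against 10 µg/kg. With probes near the shared ratio left out, 1 gene was called at 0.03 µg/kg. Without the 30 µg/kg pairs 1 gene was called for the slope and 13 for high against low doses. Without those of replicates 1 and 3, 0 GST genes were called for the slope and for high against low doses, 9 genes for the slope and 1743 for replicate number. The causes of these shifts were not tested.

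Only 3 pairs per dose and 3 vehicle animals limit the precision, and without intensities the signal over background of the GST probes is unknown.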
